A study of Mus musculus with 28 samples.

Results

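Myelinated axons are divided into the node of Ranvier, the paranode beside it and the juxtaparanode under the edge of compact myelin, and 9 genes whose proteins build these domains are described here: *Cntn1*, *Cntnap1*, *Nfasc*, *Cntn2*, *Cntnap2*, *Kcna1*, *Kcna2*, *Ank3* and *Scn8a*. The genes were chosen by name and not by their values, though earlier results of these data were known. All 9 were found by symbol among the 29878 genes listed in the count tables, and all 9 were among the 14979 genes tested, which were above 1 CPM (reads of a gene relative to the size of its library, scaled by the TMM method) in at least 2 libraries.

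Myelin is laid down in segments, and the node is the gap between neighbouring segments, where voltage-gated sodium channels regenerate the action potential. At the paranode, loops of oligodendrocyte membrane attach to the axon through contactin-1 and Caspr (the products of *Cntn1* and *Cntnap1*) on the axon and a glial form of neurofascin (*Nfasc*) on the loop. At the juxtaparanode, contactin-2 (*Cntn2*, also called TAG-1) and Caspr2 (*Cntnap2*) gather Kv1 potassium channels (*Kcna1* and *Kcna2*), while at the node a neuronal form of neurofascin and ankyrin-G (*Ank3*) hold the sodium channel Nav1.6 (*Scn8a*). Most of these proteins also work outside myelinated fibres, at the axon initial segment and in unmyelinated axons, and *Cntn2* and *Nfasc* are transcribed by both neurons and oligodendrocytes.

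RNA-seq was carried out on the dorsal striatum, the ventral striatum, the motor cortex and the hypothalamus of adult male mice aged 2 to 3 months, backcrossed to C57Bl/6, that were wild-type (WT), heterozygous or knockout (KO) for *Hdc*. *Hdc* encodes histidine decarboxylase, which makes histamine. The 28 libraries comprised 2 WT, 3 heterozygous and 2 KO libraries of the dorsal striatum, 3, 3 and 2 of the ventral striatum, 3, 3 and 2 of the hypothalamus, and 1, 2 and 2 of the motor cortex. Library names carry a digit and a letter for the region, as in 8b for a KO library of the dorsal striatum, and each of the 8 digits occurs in 1 genotype only, so anything that goes with the digit cannot be told apart from genotype. Nothing in the sources ties a digit to an animal, and p-values measure the spread between these libraries, which may be technical in part.

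Libraries held between 3536802 and 5150280 counts on genes. Region markers went with the labels: 7 markers of striatal spiny neurons summed to between 5609 and 8610 CPM in the dorsal striatum and at most 172 CPM in the motor cortex, 7 markers of cortical excitatory neurons to between 2067 and 2269 CPM in the motor cortex, and 8 markers of hypothalamic neurons to between 160 and 266 CPM in the hypothalamus against at most 12.6 CPM elsewhere. Whole-gene *Hdc* counts do not separate the deleted part of the gene and so do not check the deletion. Outside the hypothalamus they were 0 to 6 in WT, 17 to 33 in heterozygous and 29 to 51 in KO libraries, and within it 79 to 111, 78 to 117 and 54 to 66. In the dorsal striatum 2 libraries stood apart: KO library 8b held 166 CPM over 8 choroid plexus markers, against 3.30 to 15.0 CPM in the other libraries, and KO library 7b held 437 CPM over the cortical markers, against 89.8 to 190 CPM. In the hypothalamus, KO library 8f held 560 CPM over the same cortical markers, against 211 to 333 CPM.

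All coordinates are those of GENCODE M21 on GRCm38, the build to which the reads were aligned. *Cntn2* (ENSMUSG00000053024) lies on chr1:132509427-132543256 and *Nfasc* (ENSMUSG00000026442) on chr1:132564690-132741797, both on the minus strand, 21433 bases apart with 0 protein-coding genes between them. *Cntn1* (chr15:92051165-92341967) and *Scn8a* (chr15:100869858-101045938) share a chromosome and the plus strand, and *Cntnap2* (chr6:45059357-47304213, plus) and *Kcna1* (chr6:126640397-126646384, minus) share another. The remaining members are *Cntnap1* (chr11:101170523-101190724, plus), *Ank3* (chr10:69398773-70027438, plus) and *Kcna2* (chr3:107101146-107115005, plus). Counts cover all exons of a gene, so the neuronal and glial forms of *Nfasc* were counted together. Exons of other genes overlap those of *Cntnap1* alone, where 233 bases, or 3.97% of the merged exons, are shared with *Plekhh3* on the opposite strand.

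*Cntn2* and *Nfasc* are the neighbours among the members and the 2 members with the largest KO over WT values in the dorsal striatum (given later), and the sequence beside a RefSeq start of each is therefore shown. Each stretch is the part nearest to that start, within 250 bases before it, that no GENCODE M21 exon covers, read 5′ to 3′ on the minus strand of GRCm38.p6. Both stretches lie inside the coordinates of their gene given above, and not upstream of the whole gene. Promoter activity was not tested. *Cntn2* is shown for chr1:132542941-132543028 and *Nfasc* for chr1:132707407-132707576, which begins 81 bases from its start. *Nfasc* has 2 windows, and the stretch beside its other start (chr1:132642859-132643108) is not shown. That stretch held 2 CCAAT boxes and no GC box.
Cntn2: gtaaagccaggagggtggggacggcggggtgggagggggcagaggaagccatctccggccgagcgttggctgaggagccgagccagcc
Nfasc: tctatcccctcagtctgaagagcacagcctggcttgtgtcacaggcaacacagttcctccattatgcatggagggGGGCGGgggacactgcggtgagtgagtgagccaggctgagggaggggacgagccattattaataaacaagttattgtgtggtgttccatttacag
Capitals mark a match to a GC box, spelled GGGCGG. RefSeq windows were matched by symbol for 6 of the 9 members, 11 windows in all, and in the 250 bases before each start 4 motifs were searched on both strands. A GC box occurred in 32.7% of all 32851 windows and in 1 window each of *Nfasc* and *Cntnap2*. The SOX core spelled ACAANG occurred in 36.3% of all windows, and among the members in 1 window of *Cntn2*, outside the stretch shown, 2 of *Cntn1*, 1 of *Cntnap2* and 1 of *Scn8a*. A CCAAT box, spelled CCAAT, was in 33.8% of all windows, and among the members in windows of *Cntn1*, *Cntnap2* and *Nfasc*. A TATA box, spelled TATAAA, was in 12.4% of all windows, and among the members in a window of *Cntn1*. Neither was in the window of *Cntn2*.

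Every member was well above the filter in every library, from 177 counts for *Kcna2* in WT library 1a of the ventral striatum to 6913 counts for *Ank3* in heterozygous library 4b of the dorsal striatum. Levels of different genes were compared as CPM per kilobase of merged exons, averaged over the 28 libraries. *Kcna1*, the Kv1.1 channel, was highest at 68.9 CPM per kilobase. *Cntn1* followed at 39.9, *Ank3* at 30.6, *Scn8a* at 28.6 and *Cntnap1* at 25.0 CPM per kilobase, and *Nfasc* at 20.4, *Cntnap2* at 14.3, *Cntn2* at 10.5 and *Kcna2* at 9.10 CPM per kilobase. The order depended on the length used, above all for *Ank3*, a gene of many transcripts. Its merged exons span 34838 bases and its longest annotated transcript has 9963 bases. With the longest transcript as the length *Ank3* was first, at 107 CPM per kilobase, and *Nfasc* (29.6) passed *Cntnap1* (27.0).

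**Figure D1:**
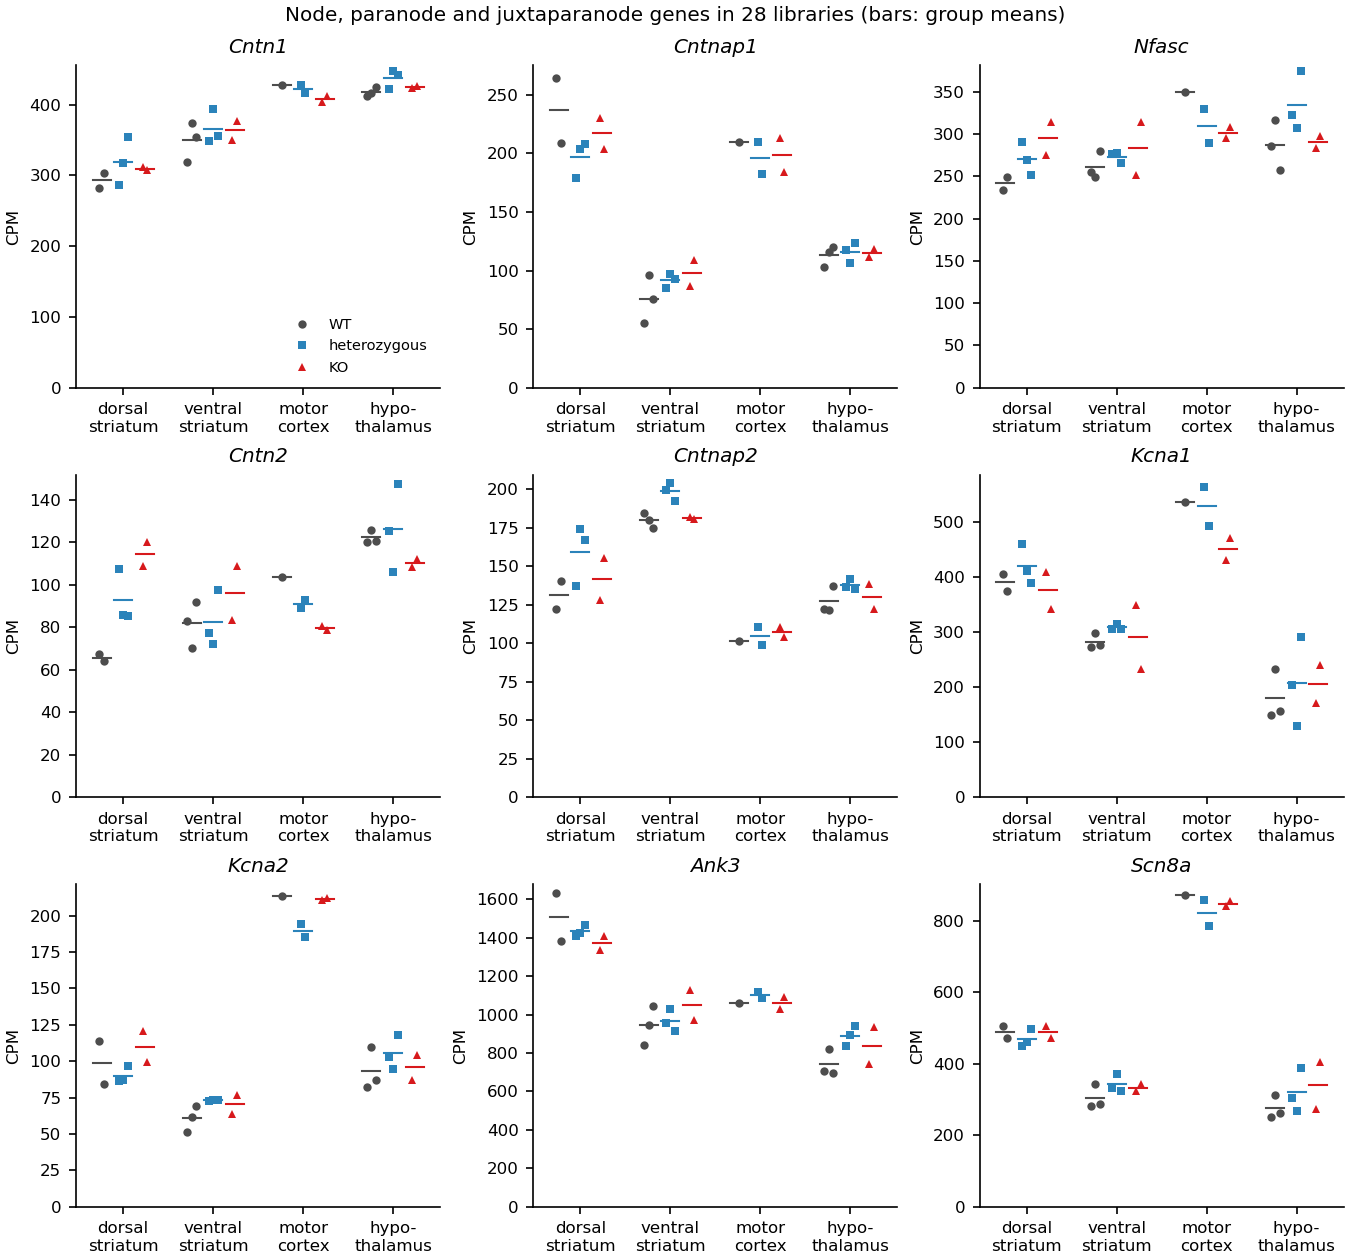
Level of each of the 9 genes in CPM (vertical axes, from 0) in each library, by region (horizontal axes) and genotype (grey circles WT, blue squares heterozygous, red triangles KO), with bars at group means. All motor cortex libraries stand above all others for *Scn8a* and *Kcna2*, all dorsal striatum libraries above all others for *Ank3*, and the WT libraries of the dorsal striatum are the lowest of that region for *Cntn2*.

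The first comparison was between regions, each taken as the plain average of its WT, heterozygous and KO group means. In each of the 6 pairs of regions 7 of the 9 members differed (edgeR's likelihood ratio test, Benjamini-Hochberg adjusted p under 0.05 over all 14979 genes). Over all genes tested the share called was 29.0% between the dorsal and ventral striatum, 43.4% between the dorsal striatum and motor cortex, 56.1% between the dorsal striatum and hypothalamus, 43.7% between the ventral striatum and motor cortex, 43.6% between the ventral striatum and hypothalamus and 48.2% between the motor cortex and hypothalamus. The members did not share a direction. The dorsal over the ventral striatum had 5 members higher and 2 lower, where 14.6% and 14.4% of all genes were called in these directions. The ventral striatum over the motor cortex had 1 higher and 6 lower (22.2% and 21.5% of all genes), and the motor cortex over the hypothalamus 5 higher and 2 lower (22.9% and 25.4%). The other 3 pairs had 2 higher and 5 lower for the dorsal striatum over the motor cortex (21.4% and 22.0%), 4 and 3 for the dorsal striatum over the hypothalamus (25.5% and 30.7%) and 3 and 4 for the ventral striatum over the hypothalamus (19.7% and 23.9%).

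Among the paranodal genes, *Cntnap1* had the widest range. Its lowest, median and highest values were 179, 208 and 265 CPM in the 7 libraries of the dorsal striatum, 55.7, 89.8 and 109 CPM in the 8 of the ventral striatum and 103, 117 and 123 CPM in the 8 of the hypothalamus, and the 5 motor cortex libraries had 210 CPM in WT, 210 and 183 CPM in heterozygous and 213 and 184 CPM in KO. The dorsal striatum and motor cortex thus overlapped each other and lay wholly above the other regions. *Cntnap1* was 2.45-fold higher in the mean of the dorsal than of the ventral striatum, with a log2 difference of 1.30 and an adjusted p of 1.98e-43. The dorsal striatum and motor cortex differed by 0.10 on the log2 scale (standard error 0.10, 95% interval -0.10 to 0.30), which did not pass the test.

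*Cntn1*, whose protein pairs with Caspr on the axon, followed another order. It ranged from 283 to 354 CPM (median 308 CPM) in the dorsal striatum, from 320 to 394 CPM (median 355 CPM) in the ventral striatum, from 403 to 427 CPM in the motor cortex and from 411 to 447 CPM (median 424 CPM) in the hypothalamus. The dorsal striatum was lowest, with log2 differences of -0.23 (standard error 0.06) against the ventral striatum, -0.45 (0.07) against the motor cortex and -0.47 (0.06) against the hypothalamus, all of which passed the test. The motor cortex and the hypothalamus differed by -0.03 (95% interval -0.16 to 0.11). *Nfasc*, the neurofascin of node and paranode, varied least, from 269 CPM in the mean of the dorsal striatum to 314 CPM in that of the motor cortex, a ratio of 1.17. It was lower in the dorsal striatum and in the ventral striatum than in the motor cortex, by 0.25 (adjusted p = 0.00638) and 0.23 (adjusted p = 0.0117) on the log2 scale in the same edgeR test. It was also called lower in the dorsal striatum than in the hypothalamus, at -0.18 (edgeR adjusted p = 0.0239). That call held in 4 of 8 alternatives and in 7 of 15 fits that left out a library. The call between the ventral striatum and motor cortex held in 10 of 12 such fits. Its libraries overlapped in every pair of regions.

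The juxtaparanodal adhesion genes also differed from each other. *Cntn2* had its lowest, median and highest values at 64.2, 85.8 and 120 CPM in the dorsal striatum, 70.3, 83.4 and 109 CPM in the ventral striatum and 106, 121 and 148 CPM in the hypothalamus, with motor cortex libraries at 104 CPM in WT, 89.3 and 93.1 CPM in heterozygous and 80.9 and 78.7 CPM in KO. The hypothalamus was higher than the other 3 regions, by 0.43, 0.47 and 0.39 on the log2 scale over the dorsal striatum, ventral striatum and motor cortex (edgeR adjusted p = 3.92e-06, 2.77e-07 and 2.89e-04). The other 3 regions lay within 0.08 of each other and did not pass the test. *Cntnap2* was highest in the ventral striatum, at 175 to 204 CPM (median 183 CPM), and lowest in the motor cortex, at 98.5 to 111 CPM, without overlap. The dorsal striatum, at 122 to 174 CPM, and the hypothalamus, at 122 to 142 CPM, overlapped and differed by 0.13 on the log2 scale (95% interval -0.01 to 0.26), which turned to -0.24 when library size alone set the scale.

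The Kv1 channel genes and *Scn8a* had their highest means in the motor cortex. *Kcna1* had 536 CPM in the WT, 564 and 493 CPM in the heterozygous and 431 and 471 CPM in the KO libraries of the motor cortex, and lowest, median and highest values of 343, 406 and 460 CPM in the dorsal striatum, 233, 301 and 350 CPM in the ventral striatum and 129, 187 and 291 CPM in the hypothalamus. The motor cortex and the dorsal striatum overlapped, as did neighbours further down this order. *Kcna1* was 1.35 higher on the log2 scale (standard error 0.14) in the motor cortex than in the hypothalamus. The difference of -0.35 between the dorsal striatum and motor cortex had an adjusted p of 0.0392 (edgeR). It missed the threshold without any 1 of 7 libraries (5b, 6b, 8b, 1b and 2b of the dorsal striatum and 5d and 8d of the motor cortex), with an adjusted p of up to 0.104, and with the choroid plexus covariate it was -0.20 (adjusted p = 0.364).

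*Kcna2*, the Kv1.2 channel, had 213 CPM in the WT, 194 and 185 CPM in the heterozygous and 211 and 212 CPM in the KO libraries of the motor cortex. It ranged from 84.1 to 121 CPM (median 96.4 CPM) in the dorsal striatum, from 82.1 to 118 CPM (median 99.1 CPM) in the hypothalamus and from 51.0 to 76.7 CPM (median 70.9 CPM) in the ventral striatum. The motor cortex stood above all other libraries, and the ventral striatum below all others. The motor cortex exceeded the ventral striatum by 1.59 on the log2 scale (standard error 0.10) and the hypothalamus by 1.06 (0.10), while the dorsal striatum and hypothalamus differed by 0.02 (95% interval -0.15 to 0.19), a value that turned to -0.35 when library size alone set the scale.

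At the node, *Scn8a* showed the motor cortex apart as well. Its values there were 870 CPM in WT, 859 and 785 CPM in heterozygous and 841 and 854 CPM in KO. The dorsal striatum had 449 to 504 CPM (median 473 CPM), the ventral striatum 283 to 370 CPM (median 328 CPM) and the hypothalamus 250 to 405 CPM (median 289 CPM). No library of the motor cortex or of the dorsal striatum overlapped another region, while the ventral striatum and the hypothalamus overlapped and differed by 0.07 on the log2 scale (95% interval -0.09 to 0.24). The motor cortex exceeded the dorsal striatum by 0.81 (standard error 0.10), the ventral striatum by 1.38 (0.10) and the hypothalamus by 1.45 (0.10).

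*Ank3*, the scaffold that anchors sodium channels, had its own order, with the dorsal striatum first. It ranged from 1336 to 1631 CPM (median 1410 CPM) in the dorsal striatum, from 1029 to 1117 CPM in the motor cortex, from 841 to 1130 CPM (median 963 CPM) in the ventral striatum and from 697 to 940 CPM (median 831 CPM) in the hypothalamus. The dorsal striatum lay above every library of the other regions, by 0.54, 0.42 and 0.81 on the log2 scale over the ventral striatum, motor cortex and hypothalamus (standard errors 0.07, 0.08 and 0.07). The ventral striatum and motor cortex differed by -0.12 (95% interval -0.28 to 0.04).

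**Figure D2:**
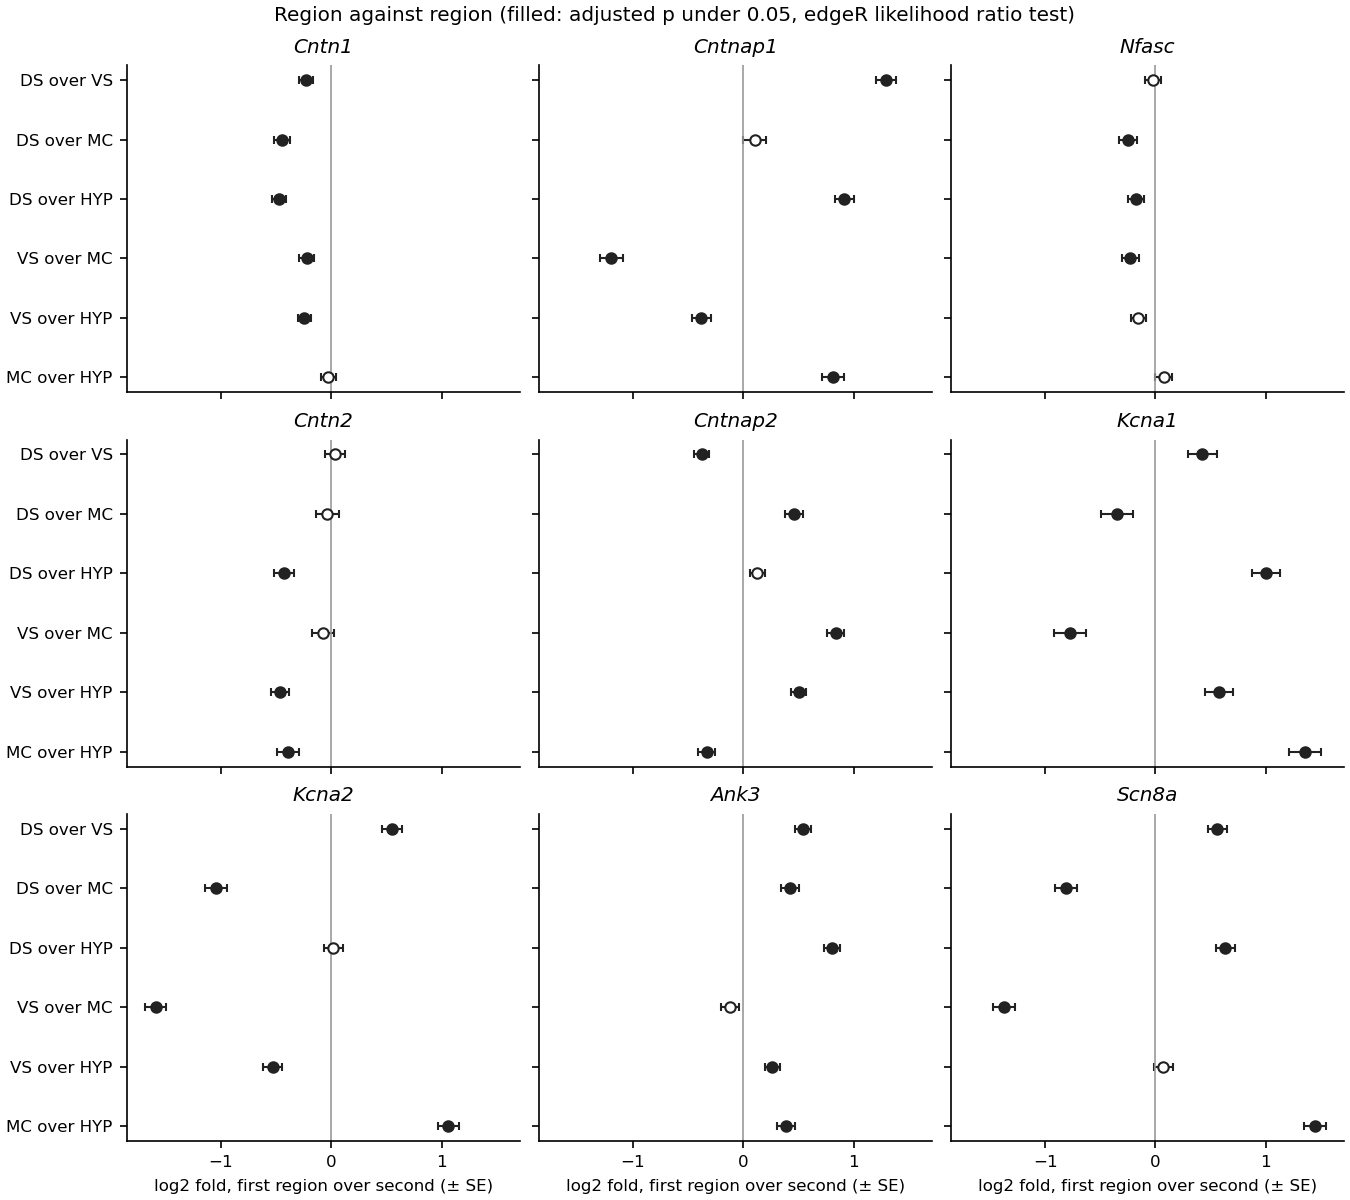
Log2 fold change of the first region over the second (horizontal axes) with its standard error for each gene and pair of regions (DS dorsal striatum, VS ventral striatum, MC motor cortex, HYP hypothalamus), with filled points where the adjusted p was under 0.05. *Nfasc* lies nearest to 0, between -0.25 and 0.07, while *Cntnap1*, *Kcna1*, *Kcna2* and *Scn8a* pass 1 in size in at least 1 pair.

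The cell types of the regions differed alongside. A sum of 6 pan-neuronal markers was 6830 to 8421 CPM in the motor cortex against 2431 to 3920 CPM in all other libraries, and 12 mature oligodendrocyte markers summed to 955 to 1655 CPM in the motor cortex against 1932 to 3785 CPM elsewhere. Their part in the regional differences of the members was not tested. In tissue such as this, fewer cells of a type and less RNA per cell cannot be told apart.

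Ratios of partner genes within a library do not depend on the scaling of the libraries. They were chosen after the levels had been seen and are given as a description, with no test. Counts of *Cntnap1* per count of *Cntn1* had a median of 0.663 in the dorsal striatum (0.587 to 0.936), 0.491 in the motor cortex (0.439 to 0.528), 0.278 in the hypothalamus (0.239 to 0.282) and 0.247 in the ventral striatum (0.174 to 0.290). The dorsal striatum, the motor cortex and the pair formed by the hypothalamus and ventral striatum thus made 3 separate ranges for the axonal partners in one paranodal complex. *Kcna1* over *Kcna2* was 3.39 to 5.33 in the dorsal striatum and 3.04 to 5.46 in the ventral striatum, against 2.04 to 2.91 in the motor cortex and 1.36 to 2.46 in the hypothalamus, without overlap between the first pair and the second. *Scn8a* over *Ank3* was 0.724 to 0.820 in the motor cortex and at most 0.433 in the other 23 libraries. *Cntn2* over *Cntnap2* was 0.354 to 0.603 in the ventral striatum, below every library of the motor cortex (0.732 to 1.03) and hypothalamus (0.749 to 1.09), and the dorsal striatum (0.457 to 0.851) overlapped all 3.

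**Figure D3:**
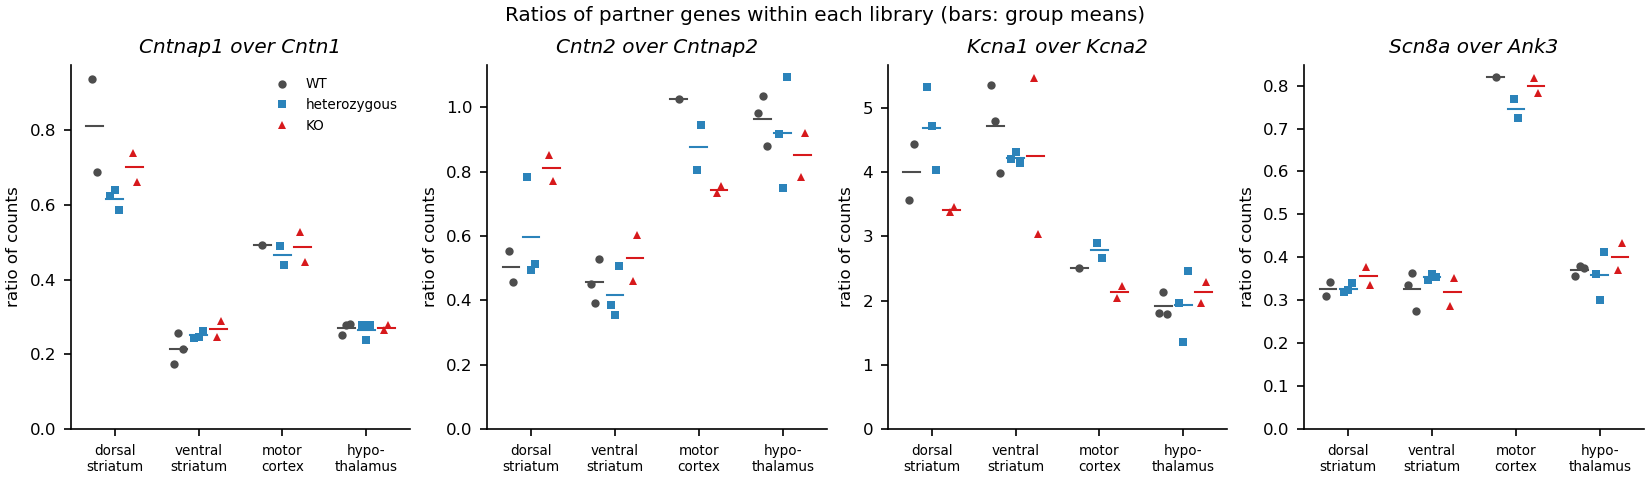
Ratio of the counts of partner genes in each library (vertical axes, from 0) by region and genotype, with bars at group means. *Cntnap1* over *Cntn1* falls from a median of 0.663 in the dorsal striatum to 0.247 in the ventral striatum, and *Scn8a* over *Ank3* is above 0.72 in the motor cortex alone.

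Another 28 genes of the node, paranode and juxtaparanode, all tested, were taken from a list made by domain. The list was drawn up with earlier results of these data known. Between the dorsal and ventral striatum 18 of the 28 were called, 16 higher and 2 lower in the dorsal striatum, beside 29.0% of all genes called, 14.6% higher and 14.4% lower. The higher nodal genes included the sodium channel subunits *Scn4b* (log2 difference 2.37), *Scn2b* (0.42) and *Scn2a* (0.41), the potassium channel *Kcnq3* (0.85) and the spectrin *Sptbn4* (0.25), with *Tnr*, a matrix protein, lower at -0.36. Of the juxtaparanodal genes, *Kcnab1* (1.496), *Kcna4* (1.07), *Adam23* (0.59), *Dlg4* (0.54), *Kcnab2* (0.44), *Adam22* (0.43), *Dlg2* (0.33) and *Epb41l2* (0.21) were higher and the channel *Kcna6* was lower at -0.73. The spectrin *Sptan1* (0.18) was the paranodal gene called.

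Between the ventral striatum and the motor cortex 19 of the 28 were called, 5 higher and 14 lower in the ventral striatum, beside 43.7% of all genes called, 22.2% higher and 21.5% lower. Those lower at the node included *Scn1a* (-1.18), the adhesion molecule *Nrcam* (-0.99), *Scn2a* (-0.47), *Kcnq3* (-0.42) and *Tnr* (-0.26). *Sptan1* (-0.68), *Ank2* (-0.66) and *Epb41l3* (-0.35), scaffolds of the paranode, were lower too, as were *Kcnab2* (-1.23), *Kcna6* (-0.64), *Adam23* (-0.51), *Adam22* (-0.49) and *Dlg4* (-0.26) of the juxtaparanode. The 5 higher genes were *Kcna4* (1.38), *Kcnab1* (1.28), *Hapln2* (1.19), *Scn4b* (0.89) and *Vcan* (0.69). In the other pairs 21 of the 28 (dorsal striatum and motor cortex, 43.4% of all genes), 22 (dorsal striatum and hypothalamus, 56.1%), 19 (ventral striatum and hypothalamus, 43.6%) and 23 (motor cortex and hypothalamus, 48.2%) were called.

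The second comparison was between genotypes within a region. In the dorsal striatum 1 of the 9 members, *Cntn2*, passed the test for KO over WT, where 0.387% of all genes tested were called (58 genes). *Cntn2* was at 67.5 CPM in library 1b and 64.2 CPM in 2b, both WT, at 107, 85.8 and 85.3 CPM in the heterozygous libraries 4b, 5b and 6b, and at 109 CPM in 7b and 120 CPM in 8b, both KO. The WT libraries were the lowest of the region, the KO libraries the highest, and the 3 genotypes did not overlap. The share of all genes without overlap between genotypes was not counted, here or below, and with so few libraries a lack of overlap is weak. KO exceeded WT by 0.80 on the log2 scale (standard error 0.17, likelihood ratio test of edgeR, adjusted p = 0.0037), heterozygous exceeded WT by 0.50 (standard error 0.16, adjusted p = 0.271), and KO exceeded heterozygous libraries by 0.30 (standard error 0.15, adjusted p = 0.683).

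*Cntn2* was also called for KO over WT by edgeR's quasi-likelihood test (adjusted p = 0.0427) and by DESeq2 (0.00924). The value stayed between 0.73 and 0.87 when 1 library was left out, but the adjusted p was 0.115 without 8b, 0.0821 without 1b and 0.126 without 2b (edgeR). With the mean log2 level of the choroid plexus markers, high in 8b, as a covariate, the value was 0.73 and the adjusted p 0.157.

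*Nfasc*, the neighbouring gene, was at 234 and 249 CPM in the WT, 290, 269 and 251 CPM in the heterozygous and 276 and 314 CPM in the KO libraries of the dorsal striatum. WT and KO did not overlap, and neither did WT and heterozygous libraries. The log2 difference between KO and WT was 0.29 (standard error 0.14) and did not pass the test (edgeR adjusted p = 0.580). WT and KO libraries of *Cntn1* did not overlap either, at 283 to 304 CPM in WT and 308 to 312 CPM in KO. *Kcna2* had a log2 difference of 0.16, *Cntnap2* of 0.11 and *Cntn1* of 0.08, while *Ank3* was at -0.13, *Cntnap1* at -0.12, *Kcna1* at -0.05 and *Scn8a* at 0.00, with standard errors of 0.12 to 0.24 and adjusted p of 0.875 or above. The median over the 9 members was 0.08, beside -0.003 over all genes tested.

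Markers of mature oligodendrocytes moved with *Cntn2* in the dorsal striatum. They summed to 2164 CPM in 1b and 1932 CPM in 2b (WT), 2920, 2762 and 2805 CPM in 4b, 5b and 6b (heterozygous) and 2941 CPM in 7b and 3775 CPM in 8b (KO). All 12 markers had a positive log2 difference between KO and WT, with a median of 0.74, and 4 passed the test as higher, where 0.354% of all genes were called higher. The values of *Cntn2* per 1000 CPM of these markers were 31.2 and 33.2 in WT, 36.8, 31.1 and 30.4 in heterozygous and 37.0 and 31.8 in KO libraries, so the genotypes overlapped on this scale. *Nfasc* per 1000 CPM of the markers was 108 and 129 in WT, 99.3, 97.3 and 89.5 in heterozygous and 93.7 and 83.2 in KO libraries, so WT was highest. The part of oligodendrocyte RNA in the *Cntn2* difference was not tested.

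In the other regions 0 of the 9 members passed the likelihood ratio test of edgeR for KO over WT, where the share of all genes called was 0.0801% for the ventral striatum, 0.0334% for the motor cortex and 0.167% for the hypothalamus. The members with an unadjusted p under 0.05 numbered 1, 0 and 1 in that order, beside 809, 649 and 900 of all 14979 genes, and the quasi-likelihood test and DESeq2 also called 0. *Cntn2* had 83.1, 70.3 and 92.1 CPM in WT and 83.7 and 109 CPM in KO libraries of the ventral striatum, a log2 difference of 0.23 (standard error 0.16) with overlap. In the motor cortex, the KO libraries (80.9 and 78.7 CPM) lay below the WT library (104 CPM), a difference of -0.38 (standard error 0.21) with no replicate check on the WT side. In the hypothalamus the WT libraries had 120, 126 and 121 CPM and the KO libraries 109 and 112 CPM, a difference of -0.15 (standard error 0.15) without overlap.

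The oligodendrocyte markers stood in the same order as *Cntn2* over the regions. Their median log2 difference between KO and WT was 0.13 in the ventral striatum, with 9 of 12 positive, -0.07 in the hypothalamus, with 4 of 12 positive, and -0.64 in the motor cortex, with 0 of 12 positive, and 0 of the 12 passed edgeR's likelihood ratio test in each of these regions. *Cntn2* was positive in the regions where the median of the markers was, but outside the dorsal striatum it was not called either. A link between *Cntn2* and the markers over regions was not tested.

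The largest of the other members' values outside the dorsal striatum was that of *Cntnap1* in the ventral striatum, at 0.36 (standard error 0.16, edgeR adjusted p = 0.844). *Cntnap1* had 55.7, 96.2 and 75.7 CPM in the WT and 86.5 and 109 CPM in the KO libraries there. The WT library 1a was the lowest of the region for *Cntnap1*, *Kcna2*, *Scn8a*, *Ank3* and *Cntn1*, and it had the lowest sum of pan-neuronal markers of the region, 2431 CPM against 2699 CPM or more. *Scn8a* in the hypothalamus followed, at 0.31 (standard error 0.15, adjusted p = 0.818), with 250, 312 and 262 CPM in WT and 275 and 405 CPM in KO. The high KO value was that of library 8f, which held the most cortical and pan-neuronal marker CPM of the region, and without it the difference was -0.002.

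**Figure D4:**
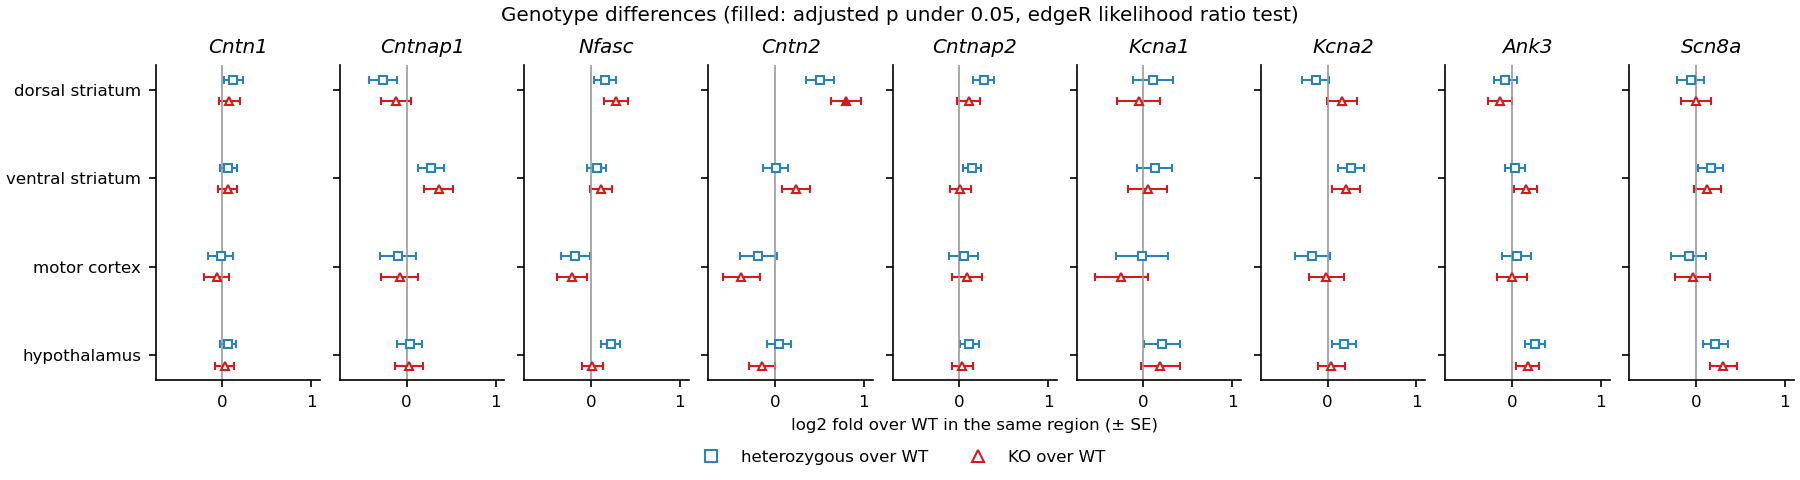
Log2 fold change over WT in the same region (horizontal axes) with its standard error for heterozygous (blue squares) and KO (red triangles) libraries, by gene and region, with filled symbols where the adjusted p was under 0.05. *Cntn2* in the dorsal striatum is the 1 filled symbol, at 0.80 for KO over WT.

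Heterozygous libraries gave no call among the members. For heterozygous over WT, 0 of 9 were called in each region by edgeR's likelihood ratio test, its quasi-likelihood test and DESeq2, with 0.0868%, 0.0534%, 0.0134% and 0.0935% of all genes called by the first in the dorsal striatum, ventral striatum, motor cortex and hypothalamus. At an unadjusted p under 0.05 the numbers were 2, 0, 0 and 2, beside 1191, 674, 556 and 842 of all 14979 genes. The largest of these values after *Cntn2* in the dorsal striatum were *Cntnap1* in the ventral striatum at 0.27 (standard error 0.15) and *Cntnap2* in the dorsal striatum at 0.27 (standard error 0.12). For KO over heterozygous, 0 of 9 were called in each region by the same 3 tests, with 0.461%, 0.0467%, 0.00668% and 0.234% of all genes called by the likelihood ratio test, and 1, 0, 0 and 0 members had an unadjusted p under 0.05, beside 1089, 515, 625 and 831 of all genes.

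The third comparison was the difference of the KO over WT value between the dorsal striatum and each other region. For *Cntn2* this difference was 1.18 against the motor cortex (standard error 0.27, edgeR adjusted p = 0.0235), 0.95 against the hypothalamus (standard error 0.23, adjusted p = 0.0271) and 0.57 against the ventral striatum (standard error 0.23, adjusted p = 1.00). The first and second passed the likelihood ratio test, where 0.127% and 0.154% of all genes were called, and the third did not, where 0.00668% were. These differences share the dorsal striatum libraries and are not independent of each other. Neither call was made by the quasi-likelihood test (adjusted p = 0.203 and 0.217) or by DESeq2 (0.0656 and 0.101). The other 8 members were not called in any of the 3 differences by these tests, and the members with an unadjusted p under 0.05, *Cntn2* included, numbered 2, 1 and 2 against the motor cortex, hypothalamus and ventral striatum, beside 812, 1030 and 652 of all genes. *Nfasc* came nearest in the difference against the motor cortex, at 0.50 (standard error 0.21, adjusted p = 0.804).

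The other 28 genes of the domains had 0 calls in each of the 12 genotype comparisons by edgeR's likelihood ratio test, its quasi-likelihood test and DESeq2. At an unadjusted p under 0.05 there were 0 to 3 of them in a comparison, the 3 being for KO over WT in the dorsal striatum, where 1190 of all 14979 genes were under it. In the dorsal striatum, 10 of the 28 had a positive KO over WT value, with a median of -0.07. The largest of these was that of *Hapln2*, a link protein of the nodal matrix that is named here after its values were seen, at 1.098 (standard error 0.46, adjusted p = 0.445), with group means of 5.68 CPM in KO and 2.78 CPM in WT.

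Within a region, *Cntn2* and the summed oligodendrocyte markers could be set side by side over libraries. No pooled correlation is given for the dorsal striatum, where the WT libraries form a separate group on both axes. In the hypothalamus (n = 8) Pearson's r was 0.935 (exact permutation test, two-sided, p = 0.00131, adjusted p = 0.0177 over 54 relations computed) and Spearman's rho was 0.810 (exact p = 0.0218, adjusted p = 0.129). The libraries 5f and 6f were farthest from the median of the markers, and without them r was 0.679. In the ventral striatum (n = 8) r was 0.755 (exact permutation p = 0.0353, adjusted p = 0.147) and rho 0.714 (exact p = 0.0576, adjusted p = 0.239), and without 4a and 2a r was 0.581. All values of a library share its depth and scaling.

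**Figure D5:**
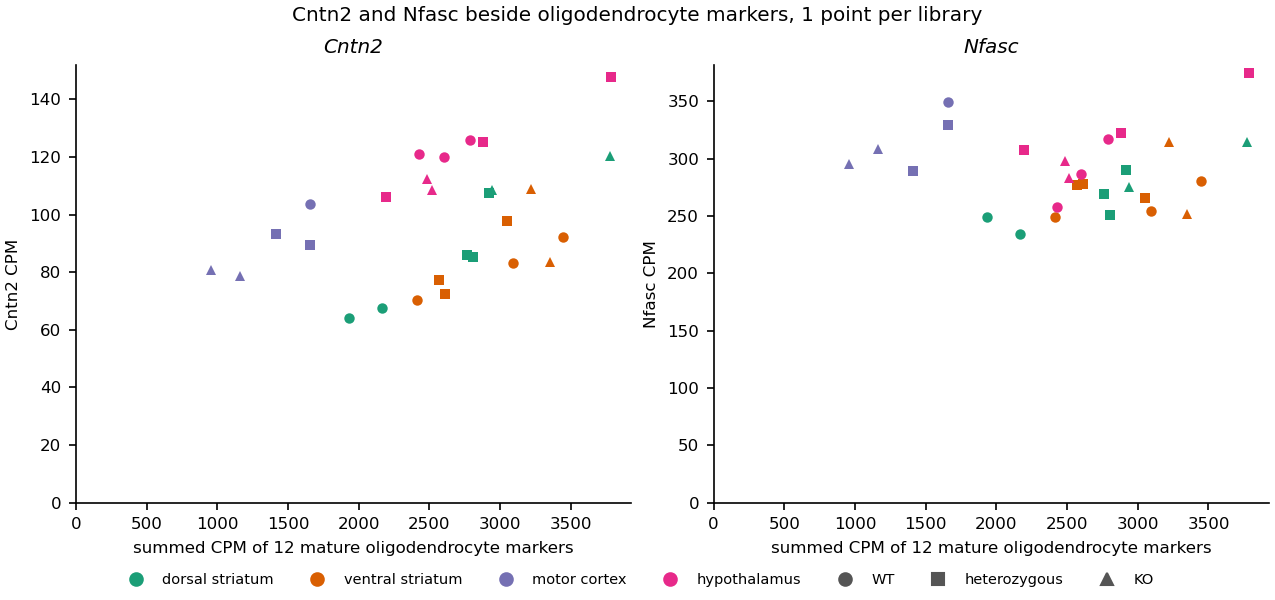
CPM of *Cntn2* (left) and *Nfasc* (right) against the summed CPM of 12 mature oligodendrocyte markers, 1 point per library, coloured by region and shaped by genotype, with all axes from 0. Within the dorsal striatum the WT circles lie lowest on both axes for *Cntn2*, and the motor cortex holds 54.0 to 84.7 CPM of *Cntn2* per 1000 CPM of markers against 25.0 to 49.8 in the other regions.

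*Scn8a* went instead with the summed pan-neuronal markers in 2 regions, and it was not the only member to do so. In the hypothalamus (n = 8) r was 0.977 (exact permutation p = 0.000174, adjusted p = 0.00937) and rho 0.929 (exact p = 0.00223, adjusted p = 0.05), and r was 0.875 without 6f and 8f. In the ventral striatum (n = 8) r was 0.901 (exact permutation p = 0.000694, adjusted p = 0.0125) and rho 0.786 (exact p = 0.0279, adjusted p = 0.137), and r was 0.843 without 5a and 1a. *Cntnap1* had an r of 0.932 with the same markers in the ventral striatum (exact permutation p = 0.00345, adjusted p = 0.0310, n = 8, rho 0.905 with adjusted p = 0.0616), and 0.821 without the same pair of libraries. *Cntn1* there had an r of 0.898 (exact permutation adjusted p = 0.0292), and 0.515 without that pair. In the hypothalamus r was 0.833 for *Ank3*, 0.816 for *Kcna2*, 0.807 for *Kcna1* (exact permutation adjusted p 0.0693 to 0.0721) and 0.654 for *Cntnap1* (adjusted p = 0.254). In the dorsal striatum (n = 7) r for *Scn8a* was 0.642 (exact permutation adjusted p = 0.334). The oligodendrocyte markers of the hypothalamus gave an r of 0.798 for *Kcna1*, near its value with the pan-neuronal markers (exact permutation adjusted p = 0.0693). With them r was 0.789 for *Nfasc* (adjusted p = 0.145) and 0.676 for *Kcna2* (adjusted p = 0.194). It was 0.563 for *Cntnap1*, 0.558 for *Scn8a*, 0.352 for *Ank3*, 0.081 for *Cntn1* and -0.087 for *Cntnap2*.

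The genes most like each member over the 12 group means were taken as the 2 with the smallest root-mean-square log2 difference after centring, out of 14978 others. *Nfasc* was nearest to *Rab24* (0.05) and *Gpat4* (0.07), *Cntn1* to *Hgs* (0.05) and *Hook3* (0.05), and *Ank3* to *Abi1* (0.05) and *Cd47* (0.07). For the channel genes these were *Dock3* and *Snph* (both 0.11) for *Kcna1*, *Atrnl1* and *Nfic* (both 0.10) for *Kcna2*, and *Dclk1* and *Cacna1a* (both 0.10) for *Scn8a*. *Cntnap1* was nearest to *Dab2ip* (0.12) and *Pld3* (0.14), *Cntnap2* to *Sall1* (0.09) and *Ets2* (0.12), and *Cntn2* to *Plcl1* (0.12) and *Adamts1* (0.13). Among the members themselves, the closest pairs were *Cntn1* with *Nfasc* (0.13), *Nfasc* with *Cntn2* (0.21), *Cntn1* with *Cntn2* (0.24) and *Kcna1* with *Scn8a* (0.26). Genes that vary little lie close by this measure. The root-mean-square of a member about its own mean was 0.14 for *Nfasc*, 0.195 for *Cntn1* and 0.269 for *Cntn2*, against 0.526 for *Kcna1* and 0.588 for *Scn8a*. The distances of *Cntn2* from *Nfasc* and *Cntn1* exceeded the variation of those genes but were below that of *Cntn2* itself. Being set largely by how much each gene varies, they do not decide whether a pattern was shared.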

How the data were processed

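RNA from 4 brain regions of *Hdc* mice was amplified with the Ovation RNA-Seq V2 kit and read as single-end 50-base reads. The authors trimmed reads with Trimmomatic 0.32, removed ribosomal RNA reads found with Bowtie2 2.2.3, aligned the rest to GRCm38 (Ensembl annotation 75) with STAR 2.3.1z8, and deposited raw counts per gene from HTSeq 0.6.1p1 (union mode, unique reads over exons), with SAMtools 0.1.19 also named. The strand setting is not given in the sources used here. Rows without a gene were left out, and 44.8% to 54.2% of tallied reads fell on genes, while ambiguous reads came to 0.807% to 1.22% of gene counts.

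IDs were named from GENCODE M21 (28758 of 29878 matched). Genes above 1 CPM in at least 2 of 28 libraries were fitted in edgeR 4.0.16 (R 4.3.3, TMM scaling, 12 group means in 1 model), and tested with the likelihood ratio test, the method of the study, with Benjamini-Hochberg adjustment over all 14979 genes at 0.05. The fit was tested on simulated counts. Alternatives were the quasi-likelihood test, DESeq2 1.42.0, other scalings, no filter, only the groups compared, a choroid plexus covariate, a replicate block and each library left out. Exact permutation tests used scipy 1.17.1. By rule the text names the 9 members, those of 28 other genes of the domains that were called in the comparison described (given as counts where none was), and the 2 nearest patterns of each member, and *Hapln2* falls outside this rule. Some called genes of the list are not reported here by name. Within-group library pairs differed beyond sampling noise (chi-square per degree of freedom 1.78 to 13.3 over 21 pairs). Members, lists and tests were chosen with earlier results of these data known.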

Additional observations from a re-analysis of the deposited data

Results flagged for a closer look

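The KO over WT value of *Cntn2* differed between regions by a test of the difference itself. It was 1.178 higher on the log2 scale in the dorsal striatum than in the motor cortex (standard error 0.27, edgeR adjusted p = 0.0235) and 0.946 higher than in the hypothalamus (standard error 0.23, adjusted p = 0.0271). Neither call held by the quasi-likelihood test (adjusted p = 0.203 and 0.217), by DESeq2 (0.0656 and 0.101) or with the choroid plexus covariate (0.111 and 0.298), and each held in 1 of the 6 and 1 of the 9 fits that left out a library. The values compared were 0.80 in the dorsal striatum, -0.38 in the motor cortex, where WT is 1 library, and -0.15 in the hypothalamus. The oligodendrocyte markers differed alongside, with median differences of 1.35 against the motor cortex, where 6 of 12 were called (0.127% of all genes), and 0.81 against the hypothalamus, where 1 of 12 was called (0.154% of all genes), and their part was not tested.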

How the results depend on the processing

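Of 189 differences of the members, 45 were called, and over all alternatives these kept their side of the threshold 892 times, lost it 53 times and reversed 0 times. With library size alone, which moved the median of all genes by 0.28 between KO and WT of the dorsal striatum, 2 members were called there (*Nfasc* also, at 0.57, edgeR adjusted p = 0.0253) and 1 for heterozygous over WT (*Cntn2*, 0.70, adjusted p = 0.0440, median of all genes 0.20). On that scale *Cntnap2* and *Kcna2* turned to -0.243 and -0.349 between the dorsal striatum and hypothalamus. With the choroid plexus covariate 0 members were called for KO over WT in the dorsal striatum, and 0 in its differences from the motor cortex and hypothalamus. Those differences also had 0 calls by the quasi-likelihood test and by DESeq2. Leaving out 1 library gave 0 to 1 calls in each of the 3. *Cntn2* kept its difference from the motor cortex in 1 of 6 such fits and that from the hypothalamus in 1 of 9, in both without KO library 7b of the dorsal striatum, with adjusted p of 0.0168 to 0.183 and 0.0216 to 0.248 over these fits. Between regions, with 1 library left out, the count called ranged from 6 to 8 (dorsal striatum and hypothalamus), 6 to 7 (either striatal region and motor cortex) and 7 to 8 (ventral striatum and hypothalamus), and was 7 in the other pairs. Under the other alternatives it ranged from 5 (motor cortex and hypothalamus, choroid plexus covariate) to 9 (dorsal striatum and hypothalamus, library size alone). *Kcna1* lost its call between the dorsal and ventral striatum with library size alone (0.28, adjusted p = 0.0571). With the longest transcript as length, the highest over the lowest level per kilobase was 11.4 in place of 7.57. Libraries of the same digit did not deviate together (34 pairs, mean r 0.00697, highest 0.0856), so no pairing was taken from the digits, and whether a digit marks a mouse is not known. With a replicate block, *Cntn2* kept its difference from the motor cortex (1.21, adjusted p = 0.0113) and 0 members were called in the difference from the hypothalamus (0.91, adjusted p = 0.0692), and *Kcna1* lost its call between the dorsal striatum and motor cortex (-0.32, adjusted p = 0.0890), as it did with the choroid plexus covariate (-0.20, adjusted p = 0.364). Without the 1 WT motor cortex library, its comparisons could not be fitted. With 2 or 3 libraries a group, small differences could not be shown.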
